A study of Mus musculus with 4 samples.

Results

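The CHD family of chromatin remodelers was examined by RNA sequencing of primary neural stem/progenitor cells (NSCs) from 4 newborn C57BL/6 mice, 2 of genotype +/+ and 2 of genotype Chd5-/-. The members were the genes named Chd1 to Chd9, 9 genes of the 17946 names in the table, which occupied 10 of its 18169 rows because Chd3 has 2 rows. Each culture came from the tissue lining the ventricles of 1 brain, including the ventricular and subventricular zones, and all 4 were grown in medium with epidermal growth factor and fibroblast growth factor 2. The growth protocol gives postnatal day 1 for all cultures, whereas the age entries of the samples give days 1 and 2 for +/+ and days 3 and 4 for Chd5-/-. By those entries, age and genotype cannot be told apart.

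CHD proteins use the energy of ATP to move, evict or assemble nucleosomes, the units of DNA wrapped around histones. All carry a pair of chromodomains next to a helicase-like ATPase motor of the SNF2 type. The family is divided into subfamily I (Chd1 and Chd2, with a DNA-binding domain), subfamily II (Chd3, Chd4 and Chd5, with paired PHD fingers) and subfamily III (Chd6 to Chd9). Subfamily II supplies the motor subunit of NuRD, a complex that joins nucleosome remodeling to histone deacetylation, and a NuRD complex is thought to hold a single CHD motor at a time. Chd5 is known as a tumor suppressor and is found mainly in neurons and testis, whereas Chd4 is used broadly.

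The values are in TPM, an abundance divided by transcript length and scaled to a fixed total, so that levels of different genes can be compared within a sample. TPM keeps no record of read number. The depth is therefore unknown, and the error of each value rests on 2 samples per genotype. Genome-wide the +/+ samples resembled each other more (Spearman correlation across rows 0.974) than the Chd5-/- samples did (0.904), and the 4 correlations between genotypes ranged from 0.904 to 0.925. Transcripts of 9 neural stem cell markers summed to 8064 and 6660 TPM in +/+ and to 3597 and 5940 TPM in Chd5-/- samples. Most of each sum was Fabp7, at 5891.59 and 4315.73 TPM in +/+ and 1938.77 and 3822.43 TPM in Chd5-/-. The markers did not move as a class. Vim was lower in both Chd5-/- samples, whereas Egfr was higher in both (147.21 and 324.03 TPM, against 138.93 and 129.19 TPM in +/+). Of 11 neuronal markers with a row, Rbfox3, Snap25, Slc17a7 and Neurod1 stayed under 1 TPM in every sample. The neuronal markers summed to between 431 and 804 TPM, both extremes being Chd5-/- samples, and Map2 alone gave 365.59 to 784.89 TPM of it. Gad1, by contrast, was highest in Chd5-/- replicate 1 (57.17 TPM). The sums of astrocyte and oligodendrocyte lineage markers, 6 and 7 genes with a row, were lowest in Chd5-/- replicate 1 (514 and 504 TPM). They were highest in Chd5-/- replicate 2 (1109 and 928 TPM). Single markers did not all follow the sums. Slc1a2 (70.45 TPM) and Olig1 (300.77 TPM) were lowest in Chd5-/- replicate 1, whereas Olig2 was highest there (190.31 TPM). S100b (42.1 TPM) and Aldh1l1 (66.45 TPM) were highest in +/+ replicate 2. Both microglial markers with a row were under 1 TPM throughout, with sums of 0.21 to 0.62 TPM. The 6 mesenchymal and endothelial markers with a row summed to 0.08 to 5.41 TPM, highest in Chd5-/- replicate 1. A change in the share of a cell type and a change in RNA per cell cannot be told apart in such bulk samples. The part that cell makeup had in the differences described here was not tested.

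The 9 genes lie on 8 chromosomes of the mouse genome (GRCm38, GENCODE release M21). Chd1 is on chromosome 17 (15704967 to 15772610, plus strand) and Chd2 on chromosome 7 (73426638 to 73541830, minus strand). Chd3 is on chromosome 11 (69343273 to 69369406, minus strand), Chd4 on chromosome 6 (125095981 to 125130591, plus strand) and Chd5 on chromosome 4 (152338651 to 152390194, plus strand). Chd6 is on chromosome 2 (160946978 to 161109075, minus strand) and Chd7 on chromosome 4 (8690406 to 8867659, plus strand). Chd8 is on chromosome 14 (52198151 to 52257780, minus strand) and Chd9 on chromosome 8 (90828352 to 91054516, plus strand). Their longest annotated transcripts are built from 36 to 42 exons and run from 6697 bases in Chd4 to 12008 bases in Chd9.

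The region just before the first base of the gene is shown for Chd4 and Chd5, the most and the least abundant member, with every CG dinucleotide in capitals. Both windows are 250 bases on the plus strand of GRCm38.p6, from RefSeq, at chr6:125095731-125095980 and chr4:152338401-152338650.
Chd4: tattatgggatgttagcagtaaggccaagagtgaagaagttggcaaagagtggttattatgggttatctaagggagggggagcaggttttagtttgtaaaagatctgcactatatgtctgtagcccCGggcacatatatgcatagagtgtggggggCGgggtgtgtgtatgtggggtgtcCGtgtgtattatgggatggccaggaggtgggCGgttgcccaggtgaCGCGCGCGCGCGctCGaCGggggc
Chd5: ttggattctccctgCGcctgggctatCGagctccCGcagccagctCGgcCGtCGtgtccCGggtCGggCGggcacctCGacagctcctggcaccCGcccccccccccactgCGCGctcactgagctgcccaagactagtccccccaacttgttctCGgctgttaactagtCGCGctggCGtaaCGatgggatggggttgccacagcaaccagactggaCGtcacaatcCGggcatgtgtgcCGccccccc
The Chd4 window held 12 CG dinucleotides and 54.0% GC, and the Chd5 window held 21 and 67.2% GC. Of 32841 windows of the same length before RefSeq starts, 33.5% held at least as many as that of Chd4 and 16.4% at least as many as that of Chd5, with a median of 6. A further Chd4 window in the table, which reaches past the first start, held 23 and 67.6% GC (13.3% of windows held at least as many), so that no order between Chd4 and Chd5 follows from these counts. The low TPM of Chd5 was thus measured at a gene whose start is rich in CG dinucleotides. In all, 5 members matched the promoter table, with 8 windows between them.

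In +/+ NSCs the members spanned a wide range of levels, with Chd4 at the top and Chd5 at the bottom. Chd4, the broadly used NuRD motor, measured 103.75 and 78.52 TPM, above 90.8% of all rows in the table. Chd5 measured 0.39 and 0.37 TPM, so that the mean of Chd4 was 240-fold that of Chd5. Chd3, the remaining NuRD motor, measured 4.11 and 1.55 TPM over its 2 rows, 7.45-fold the mean of Chd5. Chd4 alone made up 95.8% and 97.6% of the subfamily II transcripts in these samples, and Chd5 made up 0.36% and 0.46%.

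The other members lay between these extremes. Chd1 (30.4 ± 2.57 TPM, SD, n = 2), a remodeler recruited to active genes, and Chd6 (28.6 ± 0.00707 TPM) had overlapping values. Chd8 (26.1 ± 2.11 TPM), an autism-associated gene known as a repressor of Wnt target genes, and Chd2 (19.1 ± 0.799 TPM), an epilepsy-associated relative of Chd1, followed. Chd9 (16.7 ± 2.11 TPM) and Chd7 (14.1 ± 3.17 TPM), the gene mutated in CHARGE syndrome and required in neural crest and neural progenitors, also overlapped. All other neighbours in this order were separated in both +/+ samples. In Chd5-/- NSCs Chd4 was again highest (151 ± 18.1 TPM), Chd3 and Chd5 were again lowest, and the 6 genes from Chd7 (44.7 ± 24.7 TPM) down to Chd9 (19.3 ± 3.51 TPM) each overlapped the next.

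**Figure D1:**
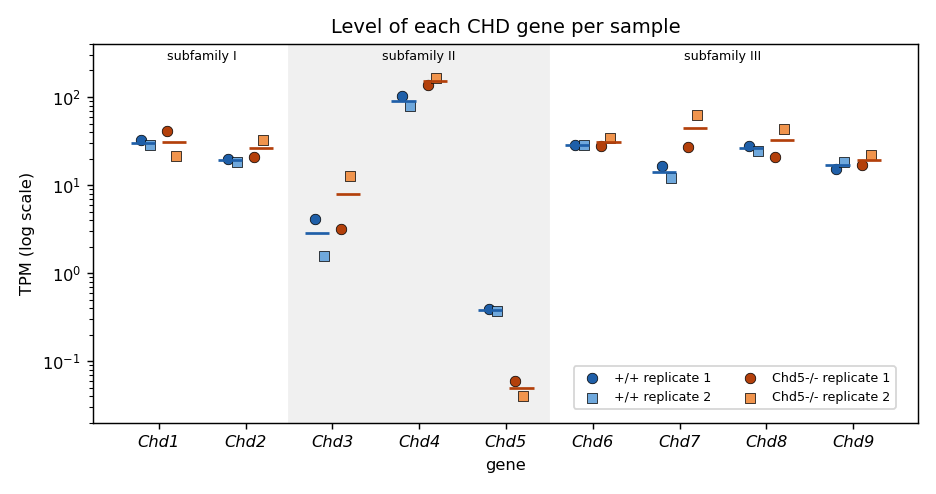
TPM of each CHD gene (x axis) on a log axis, with 1 point per sample, blue for +/+ and orange for Chd5-/-, and a short line at each genotype mean. Chd4 lies above every other gene in all 4 samples, Chd5 lies lowest, at 0.37 to 0.39 TPM in +/+ and 0.04 to 0.06 TPM in Chd5-/-, and Chd7 shows the widest gap between genotypes among the genes above 10 TPM.

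Chd5 itself, the targeted gene, gives a check of the labels that its low level limits. It measured 0.39 and 0.37 TPM in +/+ and 0.06 and 0.04 TPM in Chd5-/- samples, with no overlap. The Chd5-/- mean was 13.2% of the +/+ mean, a 7.6-fold difference or -2.93 on the log2 scale. Its mean over the 4 samples (0.215 TPM) was below the minimum of 1 TPM required for testing, and an exact permutation test gave p = 0.333 (two-sided), the smallest that 2 against 2 samples allow. With no minimum, limma gave a difference in log2(TPM + 1) of -0.39, with an adjusted p-value of 0.194. At 2 decimals, values of 0.04 and 0.06 TPM carry 1 significant digit, and the ratio is correspondingly rough. The row sums all transcripts of the gene, so that it does not show which exons the remaining signal came from.

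The 3 annotated genes on each side of Chd5 were looked up as well. Rpl22, a ribosomal protein gene and the nearest on the upstream side, measured 239.31 and 160.67 TPM in +/+ and 313.65 and 381.2 TPM in Chd5-/-. Kcnab2, a potassium channel subunit gene and the nearest downstream, measured 1.4 and 0.71 TPM in +/+ and 5.78 and 3.18 TPM in Chd5-/-. Both had Chd5-/- values above +/+ values, as did 46.3% of all rows tested. Their limma differences were 0.82 (adjusted p = 0.179) and 1.39 (adjusted p = 0.149), beside a median of 0.34 over all rows tested. Nphp4 and Rnf207 stayed below 1 TPM in every sample, and 9430083M05Rik and Gm30734 had no row. The rows whose 4 values lay nearest to those of Chd5, by Euclidean distance of log2(TPM + 0.1), were AK032387 (0.264), Fstl5 (0.559), AK147021 (0.622), Xdh (0.63) and Gpr165 (0.824), all of them below 1 TPM in every sample. AK032387 measured 0.38 and 0.45 TPM in +/+ and 0.07 and 0.05 TPM in Chd5-/-. Fstl5 measured 0.47 and 0.41 TPM in +/+ and 0.02 and 0.07 TPM in Chd5-/-. A fall of this size at this level was thus not particular to Chd5.

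To ask whether paralogs differed between genotypes when Chd5 was lost, the members were taken from a limma fit of log2(TPM + 1) over the 12576 rows that averaged 1 TPM or more. Of the 10 member rows 9 were tested, the lower Chd3 row just inside the minimum (1.02 TPM) and Chd5 outside it. That Chd3 row, the first, reached the minimum only through Chd5-/- replicate 2 (2.68 TPM). It measured 0.86 and 0 TPM in +/+ and 0.56 TPM in Chd5-/- replicate 1, so the minimum itself favored a difference above 0 there. None of the 9 passed an adjusted p-value of 0.05, which 0.0557% of all rows passed. At an unadjusted p-value under 0.05, Chd4 and Chd7 were higher in Chd5-/- NSCs (2 of 9 rows), beside 21.9% of all rows that were higher by the same rule. No member row was lower by that rule, and 2.27% of all rows were. Chd2, Chd4 and Chd7 had both Chd5-/- values above both +/+ values (3 of 9 rows, against 46.3% of all rows). No tested member had both below, against 13.0% of all rows. These shares of the members were near or below the background. The median difference of the member rows, with both Chd3 rows entered, was 0.43, and that of all rows was 0.34. With rows of one name summed the member median was 0.32, so that it did not stay above 0.34.

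Chd7 had the largest difference in log2(TPM + 1) among the member rows tested. With a pseudocount of 0.1 the first Chd3 row, which is near 1 TPM, had a larger one (2.13 against 1.55 for Chd7). The TPM of Chd7 was 16.38 and 11.9 in +/+ and 27.21 and 62.2 in Chd5-/- samples. Both Chd5-/- values were above both +/+ values, but they were themselves 2.29-fold apart. The ratio of means was 3.16, and the difference in log2(TPM + 1) was 1.50 (SE 0.44, 95% interval 0.37 to 2.62, limma, unadjusted p = 0.0187, adjusted p = 0.15). Without Chd5-/- replicate 1 the difference was 2.08 and passed (adjusted p = 0.0298), in a fit where 1247 rows passed. Without Chd5-/- replicate 2 it was 0.91 (adjusted p = 0.131). The adjusted p-value ranged from 0.0298 to 0.771 over 18 alternatives, and the difference from 0.91 to 2.08.

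Chd4 was also higher, by less. It measured 103.75 and 78.52 TPM in +/+ and 138.18 and 163.82 TPM in Chd5-/- samples, without overlap. The difference was 0.73 (SE 0.25, 95% interval 0.10 to 1.36, limma, unadjusted p = 0.0305, adjusted p = 0.173). Over 18 alternatives the difference ranged from 0.17 to 0.93 and the adjusted p-value from 0.07 to 0.864.

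Chd3, the remaining subfamily II relative of Chd4 and Chd5, varied widely between samples. Its first row measured 0.86 and 0 TPM in +/+ and 0.56 and 2.68 TPM in Chd5-/-, and its second row 3.25 and 1.55 TPM in +/+ and 2.61 and 10.01 TPM in Chd5-/-. In both rows the high value was that of Chd5-/- replicate 2 alone, and the genotypes overlapped. The differences were 0.81 (adjusted p = 0.433) and 0.94 (adjusted p = 0.398). Without Chd5-/- replicate 1 they were 1.43 and 1.74 and without Chd5-/- replicate 2 they were 0.19 and 0.13. Over all alternatives the first row ranged from 0.03 to 2.13 and the second from 0.13 to 1.74, with adjusted p-values from 0.0762 to 0.992 and from 0.0611 to 0.954. The row named Chd3os, a name that RefSeq lists for Rnf227 beside the 3′ end of Chd3, was lower in both Chd5-/- samples, with 13.45 and 12.94 TPM in +/+ and 8.4 and 10.34 TPM in Chd5-/-. Its difference of -0.46 did not pass (adjusted p = 0.341).

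In subfamily I, Chd1 measured 32.17 and 28.54 TPM in +/+ and 40.98 and 21.44 TPM in Chd5-/-. The 2 Chd5-/- values lay on either side of the +/+ values, and the difference was -0.03 (95% interval -0.94 to 0.88). Chd2 measured 19.64 and 18.51 TPM in +/+ and 21.08 and 32.19 TPM in Chd5-/-, a difference of 0.43 (95% interval -0.31 to 1.17, adjusted p = 0.404). Its genotypes did not overlap as deposited, although the lower Chd5-/- value was close to the +/+ values. They overlapped after median-of-ratios scaling and after removal of GC and length trends, where Chd2 was at 0.07. The difference was 0.73 without Chd5-/- replicate 1 and 0.14 without Chd5-/- replicate 2, and the adjusted p-value ranged from 0.121 to 0.952 over all alternatives. Chaserr, the noncoding RNA next to Chd2 that is known to restrain it, had no row. Chd1l, a relative that lacks chromodomains, measured 8.13 and 7.62 TPM in +/+ and 8.79 and 10.68 TPM in Chd5-/- (difference 0.27, adjusted p = 0.57).

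The other genes of subfamily III had smaller differences than Chd7, and none passed. Chd6 measured 28.63 and 28.62 TPM in +/+ and 28.06 and 34.16 TPM in Chd5-/-. Chd8 measured 27.61 and 24.62 TPM in +/+ and 20.99 and 43.75 TPM in Chd5-/-. Chd9 measured 15.24 and 18.22 TPM in +/+ and 16.81 and 21.77 TPM in Chd5-/-. All 3 overlapped between genotypes. Their differences were 0.11 (95% interval -0.49 to 0.71), 0.21 (-0.78 to 1.2) and 0.19 (-0.49 to 0.87), and each turned below 0 under other scalings.

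On the log2 scale, the 2 Chd5-/- samples lay further apart than the 2 +/+ samples in 8 of 9 members, all but Chd4. Across rows genome-wide the Chd5-/- samples were also less alike (Spearman correlation 0.904, against 0.974 in +/+), so that a wider spread was not particular to the members. Counts of this kind over all rows are not given here. Chd5-/- replicate 2 was above replicate 1 in 7 of 9 members, by 2.00 on the log2 scale in Chd3, 1.19 in Chd7 and 1.06 in Chd8. It was below replicate 1 in Chd1, by -0.93, and in Chd5, by -0.58. In +/+, replicate 2 was lower than replicate 1 in 7 of 9 members, most in Chd3 (-1.41), higher in Chd9 and equal within 0.01 on the log2 scale in Chd6. Chd5-/- replicate 2 was also the sample with the highest astrocyte and oligodendrocyte lineage marker sums, whose part in these values was not tested.

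**Figure D2:**
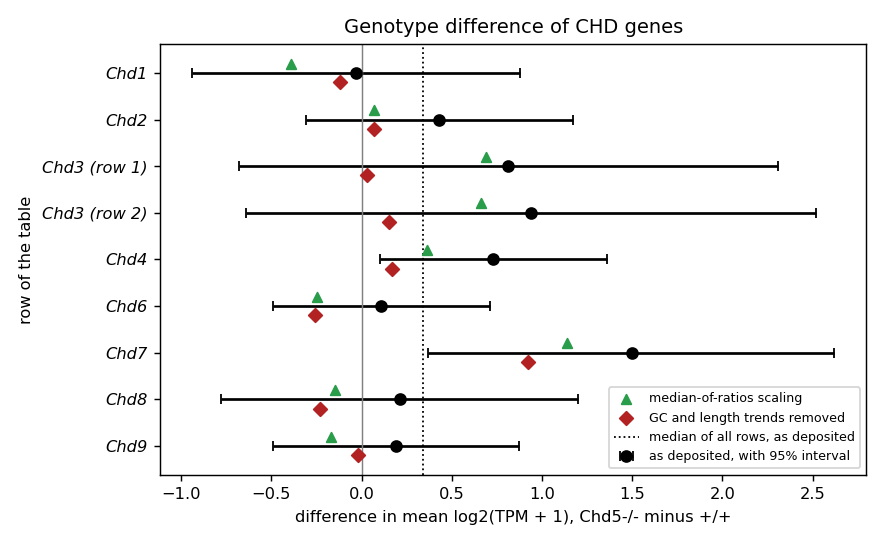
Difference in mean log2(TPM + 1), Chd5-/- minus +/+ (x axis), for the 9 member rows tested (y axis), with black points and 95% intervals for values as deposited, green triangles after median-of-ratios scaling and red diamonds after removal of GC and length trends. Only the intervals of Chd4 (0.10 to 1.36) and Chd7 (0.37 to 2.62) stay above 0, and in all 9 rows both other settings gave a lower value than the deposited one.

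The size of these differences moved with scaling and with base composition. Across 11700 rows with an annotated transcript (93% of those tested), the difference between genotypes rose with GC content (Spearman rho 0.60 across genes, a description only). The median difference was -0.13 in the quartile of rows lowest in GC and 0.93 in the highest quartile. The differences of the members followed a similar order. Chd1 had the lowest transcript GC content (43.2%) and the lowest difference, Chd9 (45.1%), Chd2 (47.9%), Chd6 (48.0%) and Chd8 (49.4%) came next, and Chd7 (51.4%), Chd4 (52.9%) and Chd3 (56.1%) had the highest differences. Over these 8 genes rho was 0.81, with all values taken from the same 4 samples. Chd5, with the highest GC content of the family (57.4%), was lower in Chd5-/- samples.

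After trends with GC content and transcript length were removed, 0 of 9 member rows passed an unadjusted p-value of 0.05 with limma, beside 11.2% of all rows in either direction. The median of the members was then 0.03 and that of all rows -0.03. Chd4 was at 0.17 (95% interval -0.33 to 0.66) and Chd7 at 0.92 (95% interval -0.19 to 2.04, unadjusted p = 0.0857). After median-of-ratios scaling, which brought the median of all rows to 0.01, Chd7 was the only member to pass an unadjusted p-value of 0.05 (1.14, unadjusted p = 0.0461, adjusted p = 0.219), as did 22.4% of all rows in either direction. Chd4 was at 0.36 under this scaling. As deposited, 8 of the 9 member rows, the first Chd3 row among them, had a difference above 0, beside 8850 of all 12576 rows tested. Under either setting 5 member rows did, with Chd1, Chd6, Chd8 and Chd9 below 0. Chd7 thus had the highest difference of the members under both settings. What part of the deposited differences goes with GC content and what part with genotype cannot be told apart in these samples.

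**Figure D3:**
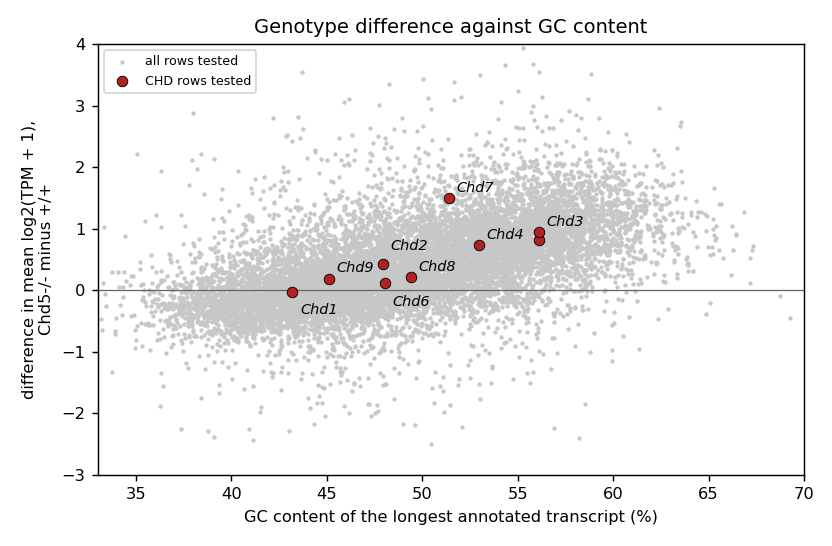
Difference in mean log2(TPM + 1), Chd5-/- minus +/+ (y axis), against GC content of the longest annotated transcript in percent (x axis), with all rows tested in gray and CHD rows in red. The cloud rises with GC content (rho 0.60), most CHD genes lie within it, and Chd7 lies near its upper side at 51.4% GC. Of 11700 rows, 20 lie outside the axes.

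Shares within the family do not depend on the scaling between samples. They can still move with GC content, since the members differ in it. Summed TPM of the 9 members was 248 and 211 in +/+ and 297 and 392 in Chd5-/- samples. Chd7 made up 6.61% and 5.64% of this sum in +/+ and 9.18% and 15.9% in Chd5-/-, a gain of 6.39 percentage points. The gain was 9.74 points without Chd5-/- replicate 1 and 3.05 points without Chd5-/- replicate 2. Chd6 made up 11.5% and 13.6% in +/+ and 9.46% and 8.71% in Chd5-/-, and Chd9 6.15% and 8.64% in +/+ and 5.67% and 5.55% in Chd5-/-. The shares of Chd6 and Chd9 were thus lower in both Chd5-/- samples and that of Chd7 was higher in both. Shares have a fixed total, so that a gain of some members lowers the shares of others. The TPM of Chd6 and Chd9 overlapped between genotypes, with means of 28.6 and 16.7 in +/+ and 31.1 and 19.3 in Chd5-/-. The drop of Chd9, -1.78 points, was -3.03 without +/+ replicate 1 and -0.536 without +/+ replicate 2. The share of Chd4 overlapped, at 41.8% and 37.2% in +/+ and 46.6% and 41.8% in Chd5-/-. Chd1 kept 13.0% to 13.8% in 3 samples and had 5.47% in Chd5-/- replicate 2. Exact permutation tests gave p = 0.333 for Chd6, Chd7 and Chd9, the smallest possible here.

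Relative to its subfamily, Chd7 was higher in both Chd5-/- samples. The mean log2 ratio of Chd7 to Chd6 was -1.04 in +/+ and 0.41 in Chd5-/-. The ratio of Chd7 to Chd8 was -0.901 in +/+ and 0.441 in Chd5-/-, and that of Chd7 to Chd9 was -0.255 and 1.10. The ratio of Chd7 to Chd4 differed by 0.822, with values of -2.66 and -2.72 in +/+ and -2.34 and -1.40 in Chd5-/-. All 4 ratios were without overlap. They share the values of Chd7 and are not separate results. An exact permutation test gave p = 0.333 for each, the smallest possible here. With GC and length trends removed, the fitted difference was 0.92 in Chd7 and -0.26, -0.23 and -0.02 in Chd6, Chd8 and Chd9. In contrast, Chd1, Chd6 and Chd9 were lower relative to Chd4 in both Chd5-/- samples, by -0.769, -0.624 and -0.538. For Chd1 the values were -1.69 and -1.46 in +/+ and -1.75 and -2.93 in Chd5-/-, so that replicate 2 gave most of the difference. With GC and length trends removed, the fitted difference was 0.17 in Chd4 and -0.12 in Chd1, beside the values of Chd6 and Chd9 above. The ratio of Chd3 to Chd4, which compares the remaining NuRD motors, overlapped (-4.66 and -5.66 in +/+, -5.45 and -3.69 in Chd5-/-). Within subfamily II, Chd4 supplied 97.7% and 92.8% of the transcripts in Chd5-/- samples.

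**Figure D4:**
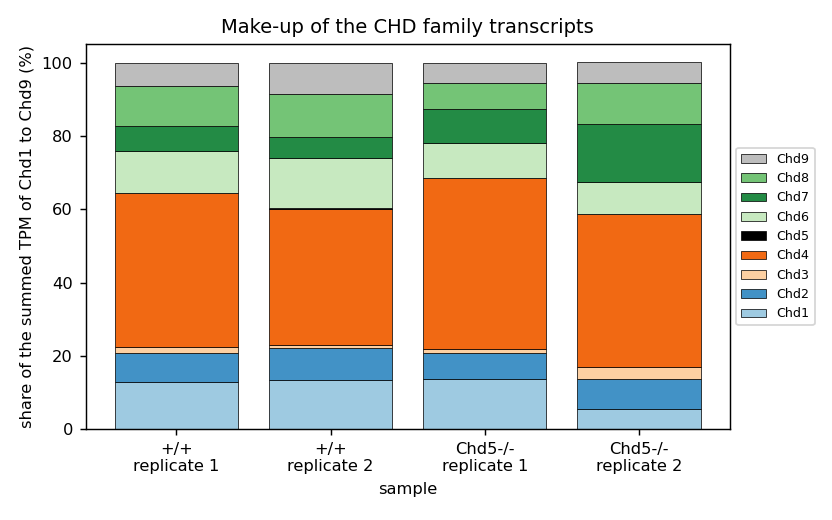
Share of each gene in the summed TPM of Chd1 to Chd9 (y axis, percent) in each of the 4 samples (x axis). Chd4 is the largest block in every sample (37.2% to 46.6%), Chd7 grows from 5.64% and 6.61% in +/+ to 9.18% and 15.9% in Chd5-/-, and Chd5 is too thin to see at its highest share of 0.175%.

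The partners of the CHD motors were then taken as lists. Of 12 NuRD subunits other than CHD, 4 were higher in Chd5-/- NSCs at an unadjusted p-value under 0.05 and 0 were lower, beside 21.9% and 2.27% of all rows. The 4 were Mbd3 (1.71), a core subunit related to methyl-CpG binding proteins, the scaffold gene Gatad2b (0.95), and Mta1 (0.76) and Mta3 (0.71), which hold the deacetylases. Mbd3 measured 9.22 and 5.96 TPM in +/+ and 30.07 and 23.65 TPM in Chd5-/-, a wider gap than that of Chd4 itself (adjusted p = 0.12). At the other end were the histone-binding subunit gene Rbbp7 (-0.32) and Mbd2 (-0.22), the alternative to Mbd3 in the complex. The median of the NuRD list was 0.49. After removal of GC and length trends Mbd3 was at 0.74, Gatad2b at 0.72, Mta3 at 0.03 and Mta1 at -0.15, so that the direction of Mta1 turned. Over the whole list the median was then -0.13, with 8 of 12 subunits below 0, among them Mta2 (-0.25), Gatad2a (-0.25), Cdk2ap1 (-0.34) and Rbbp4 (-0.03), which were above 0 as deposited. Mbd2 was then the lowest of the list, at -1.12. With median-of-ratios scaling the median of the list was 0.13, and Mbd2 was at -0.59.

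Of the 4 ChAHP partners of Chd4, the factor Adnp and the heterochromatin protein 1 genes, none passed an unadjusted p-value of 0.05 with limma. They ranged from Cbx3 (-0.34) and Cbx1 (0.04) to Adnp (0.13) and Cbx5 (0.30), with a median of 0.08. That median was -0.29 with median-of-ratios scaling and -0.09 with GC and length trends removed. Among 21 other SNF2-type ATPases tested, 2 were higher and 0 lower by that rule, beside 21.9% and 2.27% of all rows. The median of this list was 0.23, below the 0.34 of all rows. The 2 were Smarca4 (0.96, unadjusted p = 0.0209), the BAF complex motor, and Smarcal1 (0.81, unadjusted p = 0.0349), which acts at stalled replication forks. With GC and length trends removed, Smarca4 was at 0.23, Smarcal1 at 0.29 and the median of the list at -0.07, and with median-of-ratios scaling that median was -0.13. The lowest as deposited were Btaf1 (-0.47) and Hells (-1.27, unadjusted p = 0.0591), the latter a remodeler needed for DNA methylation. Hells measured 33.33 and 31.31 TPM in +/+ and 22.51 and 7.12 TPM in Chd5-/-. No gene in these lists passed an adjusted p-value of 0.05 with limma.

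**Figure D5:**
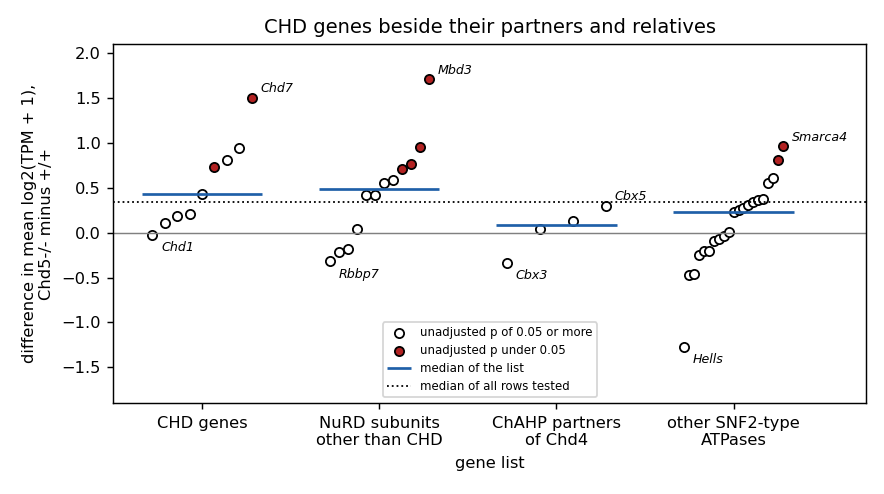
Difference in mean log2(TPM + 1), Chd5-/- minus +/+ (y axis), of each tested row in 4 gene lists (x axis), with rows in order of their difference within a list, red where the unadjusted p-value was under 0.05, blue lines at list medians and a dotted line at the median of all rows (0.34). Values are as deposited, and medians are 0.43 for CHD genes (both Chd3 rows entered), 0.49 for NuRD subunits, 0.08 for ChAHP partners and 0.23 for other SNF2-type ATPases.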

How the data were processed

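RNA-seq was analysed in primary mouse NSCs, 2 +/+ and 2 Chd5-/- samples. The authors deposited TPM values in 1 table, and the submitters' processing notes name Bowtie2 2.2.3, RSEM 1.2.20 and mm10. The gene annotation is not given in the sources used here. Libraries were stranded and made from mRNA. TPM of each sample sum to the same total, so that abundant rows shift all others.

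Rows that averaged 1 TPM or more were tested as log2(TPM + 1) with limma 3.58.1 in R 4.3.3 (eBayes with trend, two-sided), with Benjamini-Hochberg adjustment over all rows. Differences on this scale understate changes of low genes. The Chd3 rows were fitted apart and summed for levels and shares. Exact permutation tests were used for single values. GC content and length came from the longest GENCODE M21 transcript, and trends were removed by loess (span 0.5) on each sample. The fit was tested on simulated data. The sample titles give a genotype and a replicate number, and each sample was taken as a separate animal. Deviations of same-numbered samples correlated at -0.152 across rows, which cannot settle whether these samples were handled together.

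Genes named were the members, rows whose names begin with a member's symbol, 3 annotated genes on each side of Chd5, Chaserr, the 2 highest and 2 lowest rows of each list and the 5 rows nearest to Chd5. Further genes counted in 5 or fewer calls were named after their values were seen, and marker lists were given as sums. The members and lists were chosen with earlier results of these data known. Tables and figures were made with Python 3.11.15, numpy 2.4.6, pandas 2.3.3, scipy 1.17.1 and matplotlib 3.10.9.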

Additional observations from a re-analysis of the deposited data

How the results depend on the processing

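The number of member rows with an unadjusted p-value under 0.05, 2 as deposited, was 1 with the replicate block and under each of 3 scalings (by median of ratios, by quantiles, or to a total that omits the 20 rows of highest TPM), 0 after removal of GC and length trends with or without the replicate block, and 0 to 6 when a sample was left out, highest without Chd5-/- replicate 1. The median difference of the members, 0.43, was 0.07 with median-of-ratios scaling, 0.08 with quantile normalization and 0.03 after removal of GC and length trends, also with the replicate block. That median was 0.32 with rows of one name summed, 0.32 with no minimum TPM and 0.21 with a minimum mean of 10 TPM. Chd6 turned to -0.25, -0.17, -0.12 and -0.26 under these 3 scalings, in that order, and on removal of GC and length trends, Chd8 to -0.15, -0.10, -0.02 and -0.23, and Chd9 to -0.17, -0.21, -0.04 and -0.02. With the replicate block, removal of the trends gave the same values for these genes. With a sample left out, Chd1 ranged from -0.48 to 0.42, Chd6 from -0.03 to 0.25 and Chd8 from -0.30 to 0.72. The Chd5 difference of -2.93 was -3.30 with median-of-ratios scaling, -4.27 with quantile normalization and -3.25 to -2.66 with a sample left out. With a sample left out, the change in the log2 ratio of Chd3 to Chd4, 0.59, ranged from -0.29 to 1.47, the change in the share of Chd1 from -7.79 to 0.564 percentage points and that of Chd3 from -0.127 to 2.04. The sample without which the direction turned was Chd5-/- replicate 2, and for Chd1 also +/+ replicate 1 (0.06).

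Across 12576 rows, deviations from the genotype means in same-numbered samples correlated at -0.152. With 2 samples per genotype, this value cannot show whether same-numbered samples were handled together. With the replicate block 0 of 12576 rows passed an adjusted p-value of 0.05 with limma (2289 at an unadjusted p-value under 0.05), against 7 without it, and 5 passed with the numbers crossed, a pairing chosen after seeing the data. Without Chd5-/- replicate 1 or 2, 1247 or 1086 rows passed, the lone remaining sample being assumed to vary like the other genotype. The causes of these shifts were not tested. Depth cannot be read from TPM, which limits Chd5 and Chd3 most.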
